A study of Homo sapiens with 3 samples.

Results

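The transcripts of 10 glycolytic enzyme genes were followed in human embryonic stem (ES) cells: HK1 and HK2 (hexokinases), GPI (glucose phosphate isomerase), PFKL, PFKM and PFKP (phosphofructokinases), ALDOA (aldolase), PKM (pyruvate kinase), and LDHA and LDHB (lactate dehydrogenase subunits). The genes were taken by name, every probe annotated to them was kept, and all 10 were found among the 16225 genes named on the array, through 18 probes. The samples were 3 lines, H9, BG03 and ES01, which the labels describe as human ES cell lines without naming a genotype or a treatment that sets them apart. All 3 were kept on irradiated mouse embryonic fibroblasts (MEFs) in DMEM/F12 with KSR, BME, NEAA, L-glutamine and FGF2, and total RNA was extracted with TRIzol. Each line was read on 1 Illumina array. The study's design sets human ES cells beside mouse ES cells and EpiSCs; the mouse cells are not analysed here, and the question left is which isozymes the human cells express and how they vary from line to line. The labels give neither passage number nor share of feeder cells in the extracts.

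Glycolysis splits glucose into pyruvate and yields ATP without oxygen. Hexokinase, phosphofructokinase and pyruvate kinase catalyse its irreversible steps, and lactate dehydrogenase regenerates NAD+ by reducing pyruvate to lactate. Several steps have isozymes coded by different genes or made by alternative splicing, with different kinetics and tissue ranges, and pluripotent cells in culture are known for a high glycolytic rate.

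Intensities are quantile-normalized units, given in the order H9, BG03, ES01. The SD is over the log2 values of the 3 lines (n = 3), so it holds differences of line, culture and array together. A probe counted as above background when it passed the 95th percentile of 214 olfactory receptor probes, which was 11.2, 12.6 and 13.3 units on the 3 arrays. With 1 array per line there is no test between lines, and differences are given by size. The median standard error over beads was 0.03 to 0.04 on the log2 scale for bead types of 1000 to 10000 units, and 0.06 for those of 100 to 200 units, on bead means that still hold background. The brightest single bead on any array read 55764, and the brightest member value was 9284. In these bulk extracts, fewer cells of a type and less RNA per cell cannot be told apart.

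All 10 genes were above background in all 3 lines, where 59.8% of all measured genes were. Among the 18 probes, 12 were above background in every line. The 7 genes with 1 probe and the probes for all isoforms of HK1, ALDOA and PKM were all among them. Of 8 isoform probes, which the array maker's letter I marks as made for 1 transcript, 2 were above background in all lines, 1 in some and 5 in none. The probe sequences were not among the sources used here, so whether each probe reads its transcript alone was not checked, and levels of different probes are not ranked against each other.

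**Figure D1:**
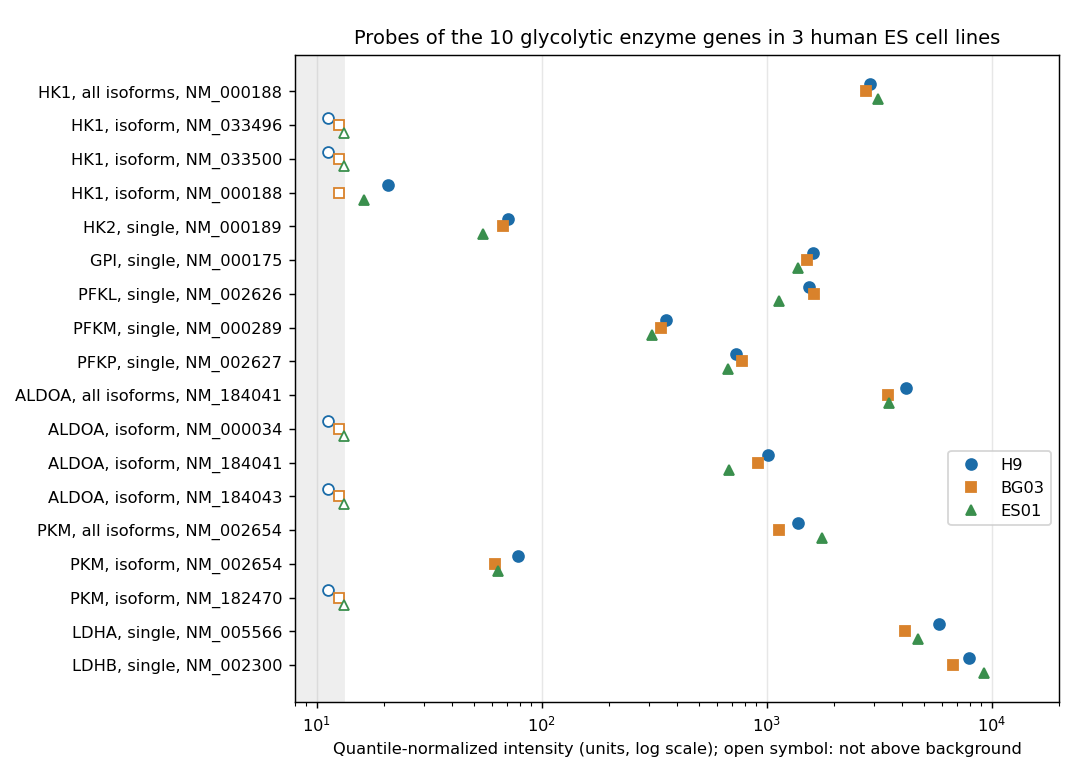
Quantile-normalized intensity (log axis, units) of the 18 probes of the 10 genes in H9 (circles), BG03 (squares) and ES01 (triangles), 1 array each. Open symbols stand at the array's background threshold and mark values not above it; 5 isoform probes of HK1, ALDOA and PKM are open in every line.

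Hexokinase phosphorylates glucose on entry into the cell. HK1, the broadly expressed form that binds mitochondria, measured 2878, 2772 and 3116 units at its all-isoform probe (log2 SD 0.09), with a highest value only 1.12 times the lowest. The 3 lines therefore lay close together for this enzyme. Its isoform probe for NM_000188 was dim at 20.8, 12.5 and 16.3 units and fell under the threshold in BG03. The probes for the other transcripts with their own probe, NM_033496 and NM_033500, were not above background in any line (at most 5.53 units). The HK1 gene is known for red cell and testis transcripts with first exons of their own. HK2, the insulin- and hypoxia-responsive form that is prominent in muscle and tumours, measured 71.2, 67.1 and 54.7 units (log2 SD 0.20), lowest in ES01. ES01 thus had the highest HK1 and the lowest HK2 of the 3 lines.

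GPI converts glucose 6-phosphate to fructose 6-phosphate. It measured 1615, 1515 and 1381 units (log2 SD 0.11), a spread of 1.17-fold.

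Phosphofructokinase commits the sugar to glycolysis, and its tetramers can mix liver (PFKL), muscle (PFKM) and platelet (PFKP) subunits. All 3 subunit genes were above background in every line. PFKL measured 1545, 1632 and 1133 units (log2 SD 0.28). Its ES01 value stood apart below the other 2, which were within 1.06-fold of each other. PFKM measured 358, 339 and 311 units (log2 SD 0.10), and PFKP 730.0, 780.3 and 676.5 units (log2 SD 0.10). ES01 was lowest for each of the 3 subunits, but PFKM and PFKP spanned only 1.15-fold.

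ALDOA, the aldolase of muscle and most embryonic tissue, cleaves fructose 1,6-bisphosphate. Its all-isoform probe measured 4162, 3478 and 3495 units (log2 SD 0.15), highest in H9 and level between BG03 and ES01. The gene has alternative first exons, and its isoform probes separated sharply. The probe for NM_184041 measured 1015, 921 and 682 units (log2 SD 0.30), while those for NM_000034 and NM_184043 were not above background in any line, at no more than 3.8 and 7.87 units. The bright isoform probe did not follow the all-isoform probe in every line: ES01 against BG03 was -0.43 on the log2 scale at the first and 0.01 at the second.

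PKM makes the final ATP of glycolysis. The gene is spliced into the M1 form of adult muscle and brain, or the M2 form of embryonic and dividing cells, by choice between 2 exons. The all-isoform probe measured 1378, 1136 and 1762 units (log2 SD 0.32), the widest spread among the 10 genes, with ES01 highest and BG03 lowest. The isoform probe for NM_002654, listed in RefSeq as the M2 transcript, measured 78.9, 62.1 and 64.3 units (log2 SD 0.19) and was above background in every line. The probe for NM_182470, an M1 transcript, read -5.33, -0.67 and -1.17 units and was above background in none. These values show signal at the M2 probe and none past background at the M1 probe; they do not show that M1 is absent. The M2 probe did not share the high ES01 value, since ES01 against H9 was 0.35 on the log2 scale at the all-isoform probe and -0.30 at the M2 probe. The splicing proteins HNRNPA1 (10262, 10346 and 10882 units) and HNRNPA2B1 (2588, 2763 and 2442 units), known to favour the M2 exon choice, were bright and varied by at most 1.13-fold; HNRNPA1 and HNRNPA2B1 were singled out after their values were seen.

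Lactate dehydrogenase is a tetramer of LDHA and LDHB subunits; LDHA-rich forms are typical of tissues that make lactate and LDHB-rich forms of heart. LDHA measured 5841, 4130.3 and 4713 units (log2 SD 0.25), highest in H9. LDHB measured 7942, 6715 and 9284 units (log2 SD 0.23), highest in ES01. BG03 was lowest for both subunits, so H9 and ES01 changed places between them.

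Promoter sequence is shown for LDHA, LDHB and HK2, since the lactate dehydrogenase and hexokinase pairs gave the 2 largest isozyme ratio differences below. The sequences are the 250 bases before an annotated start in RefSeq (GRCh38.p14), 5′ to 3′ on the gene's strand. Capitals mark ACGTG, 1 form of the core of the hypoxia response element, read on both strands. The form with G first, GCGTG, was neither marked nor counted. CACGTG, the E-box bound by MYC, holds ACGTG on each strand and overlaps it.
LDHA, chr11:18394313-18394562, plus strand: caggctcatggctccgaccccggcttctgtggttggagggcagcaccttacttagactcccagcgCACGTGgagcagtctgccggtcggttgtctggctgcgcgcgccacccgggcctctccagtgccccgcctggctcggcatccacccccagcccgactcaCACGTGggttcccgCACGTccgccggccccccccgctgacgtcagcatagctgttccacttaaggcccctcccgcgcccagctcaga
LDHB, chr12:21657843-21658092, minus strand: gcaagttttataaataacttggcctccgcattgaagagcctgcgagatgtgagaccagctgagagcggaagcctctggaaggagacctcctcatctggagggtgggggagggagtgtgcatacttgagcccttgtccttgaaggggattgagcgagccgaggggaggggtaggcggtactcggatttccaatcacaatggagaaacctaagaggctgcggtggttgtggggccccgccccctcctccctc
HK2, chr2:74833877-74834126, plus strand: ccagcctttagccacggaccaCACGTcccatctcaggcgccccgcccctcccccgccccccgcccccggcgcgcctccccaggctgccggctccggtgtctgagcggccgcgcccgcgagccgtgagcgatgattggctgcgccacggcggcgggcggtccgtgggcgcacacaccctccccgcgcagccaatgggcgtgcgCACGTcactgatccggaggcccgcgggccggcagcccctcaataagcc
The LDHA window shown held 3 separate matches, 2 of them CACGTG, while the window of the second LDHA start (chr11:18396101-18396350) held none. The HK2 window shown held 2, that of the second HK2 start 2 more, and the single LDHB window none. None of the 7 windows of HK1 held ACGTG. Over all 10 genes, 6 had it in at least 1 of their windows (ALDOA, GPI, HK2, LDHA, PFKM and PFKP), against 21.7% of all 27305 genes in the same table. Counted by window, 9 of 29 held it (31.0%), against 18.5% of all 35116 windows of that length; 3 of 29 held the E-box (10.3%), against 6.35%. Genes have different numbers of windows, and some overlap. These 10 genes have more windows per gene than all genes do, so their share counted by gene is raised. PFKM held ACGTG in 1 of 7 windows and PFKP in 1 of 4. The counts cover ACGTG alone, so a window without it can still hold GCGTG. A match is a run of letters and does not show that a factor binds there, and no array value depends on it.

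Differences between the lines were small for these genes. For none of the 10 did 2 lines differ 2-fold or more. Of the 10997 genes that passed background in 1 line or more, 3.23% did so between BG03 and H9, 5.1% between ES01 and H9, 3.74% between ES01 and BG03, and 8.23% between any 2 lines. Dim genes vary more, so the shares were also taken over the 8002 genes with a mean of at least 50 units, and were 2.17%, 3.55% and 2.61% in the same order. At those shares a count of 0 in 10 is near the background. The highest value was between 1.12 (HK1) and 1.55 (PKM) times the lowest. The median log2 SD of the 10 genes was 0.17, against 0.17 over the genes of at least 50 units. In these 3 arrays the glycolytic enzymes were thus about as variable as the genes of at least 50 units. That set was not matched to the enzymes in brightness, and all of them but HK2 were far above 50 units.

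**Figure D2:**
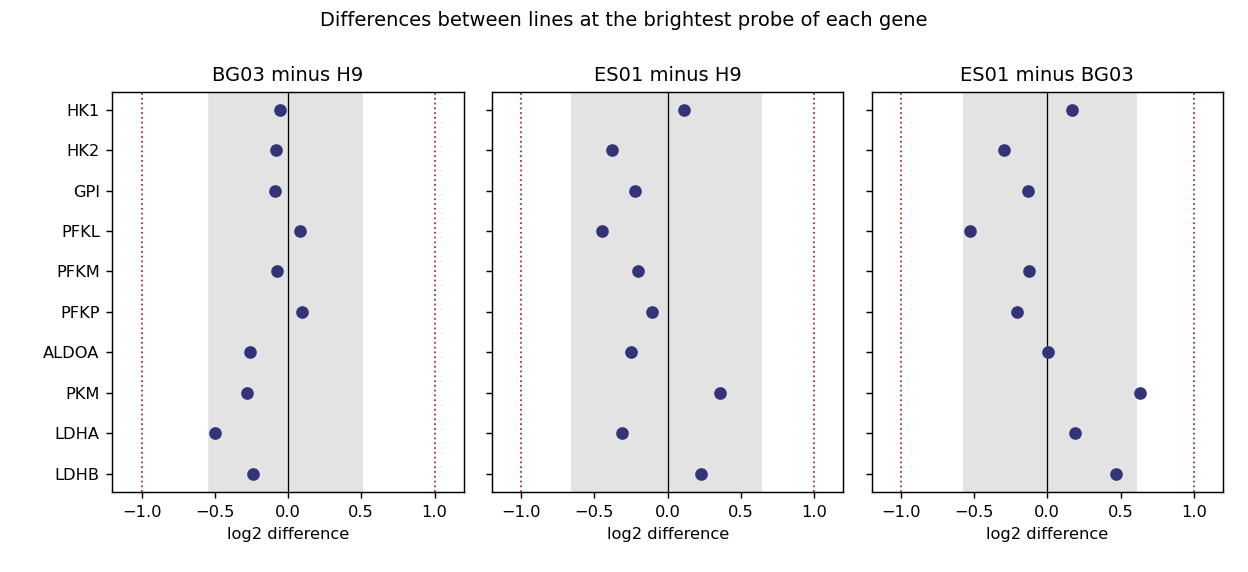
Log2 difference between 2 lines for each of the 10 genes at its brightest probe, 1 panel per pair of lines. Grey marks the range from the 5th to the 95th percentile over the 8002 genes of at least 50 units, and dotted lines mark 2-fold; 1 of 30 points, PKM in ES01 against BG03, lies outside the grey range.

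The order of the lines was counted on the quantile-normalized values. H9 was highest for 5 of the 10 genes (HK2, GPI, PFKM, ALDOA and LDHA) and lowest for 0. BG03 and ES01 were each lowest for 5. Shares of all genes highest or lowest in a line are not given, so these counts are not read as a trait of the enzymes. With the values as deposited, HK1 was lowest in H9 and GPI was no longer highest there. The median log2 difference of the 10 genes was -0.09 for BG03 minus H9, -0.22 for ES01 minus H9 and -0.06 for ES01 minus BG03; over all genes tested it was 0.03, 0.01 and -0.01. Both comparisons with H9 share the H9 array. Fewer genes hold their direction once the scaling between arrays is varied (as deposited, same median, same 75th percentile). BG03 was below H9 under all 4 scalings for HK2, ALDOA, PKM, LDHA and LDHB and above it for PFKL and PFKP, while HK1, GPI and PFKM turned. ES01 was below H9 under all 4 for HK2, GPI, PFKL, PFKM, PFKP, ALDOA and LDHA and above it for PKM, while HK1 and LDHB turned. Between ES01 and BG03, HK1, ALDOA and LDHA turned. The number of genes higher in BG03 than in H9 was 2 as normalized and 4, 4 and 5 with the other scalings. For ES01 against H9 it was 3, and 3, 1 and 3. For ES01 against BG03 it was 5, and 5, 2 and 4. As normalized, the shares of all genes tested were 53.7%, 51.8% and 49.1% in the same order. The count for ES01 against BG03 is thus near its share.

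Bead error is one yardstick for these differences. The bead codes are not linked to genes, so each probe was given the median bead standard error of 500 bead types at the same rank of brightness, divided by its own background-subtracted value. The standard error of a log2 difference was 0.04 to 0.08 for the other 9 genes and 0.15 to 0.16 for HK2, the dimmest. By that measure 20 of the 30 differences were larger than 2 bead standard errors: 4 of 10 between BG03 and H9, 9 of 10 between ES01 and H9 and 7 of 10 between ES01 and BG03. For BG03 against H9 these 4 were ALDOA, PKM, LDHA and LDHB. The 10 others, such as HK1 between BG03 and H9 (-0.05) and HK2 between ES01 and BG03 (-0.29), were not separable at this precision. Bead error compares arrays and leaves out the spread between cultures, which 1 array per line does not give. No share of all genes past this limit is given, so these counts are not read as a trait of the enzymes. The differences of a gene between the pairs of lines also depend on each other.

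Ratios of isozymes within an array are almost free of the scaling between arrays. HK2 relative to HK1 was lower in ES01 by -0.49 on the log2 scale against H9 and -0.46 against BG03, and differed by -0.03 between BG03 and H9. The hexokinase pair thus set ES01 apart from the other lines, with a bead standard error of 0.17 for either ES01 difference. LDHA relative to LDHB was highest in H9, -0.26 lower in BG03 and -0.53 lower in ES01, a change of 1.45-fold between H9 and ES01. All 3 lines were separated for this pair by more than 2 bead standard errors (0.07 each). PFKP and PFKM relative to PFKL were higher in ES01 than in H9, by 0.34 and 0.24, and than in BG03, by 0.32 and 0.40. PFKP relative to PFKM differed by 0.17 at most and in no pair of lines past 2 bead standard errors. Of 15 isozyme ratio differences, 9 were past that limit, again with no share over other genes beside it. The ratio of the PKM M2 probe to the PKM all-isoform probe was lower in ES01, by -0.65 against H9 and -0.58 against BG03. A ratio within an array shows unequal change of 2 probes and not which of them changed.

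**Figure D3:**
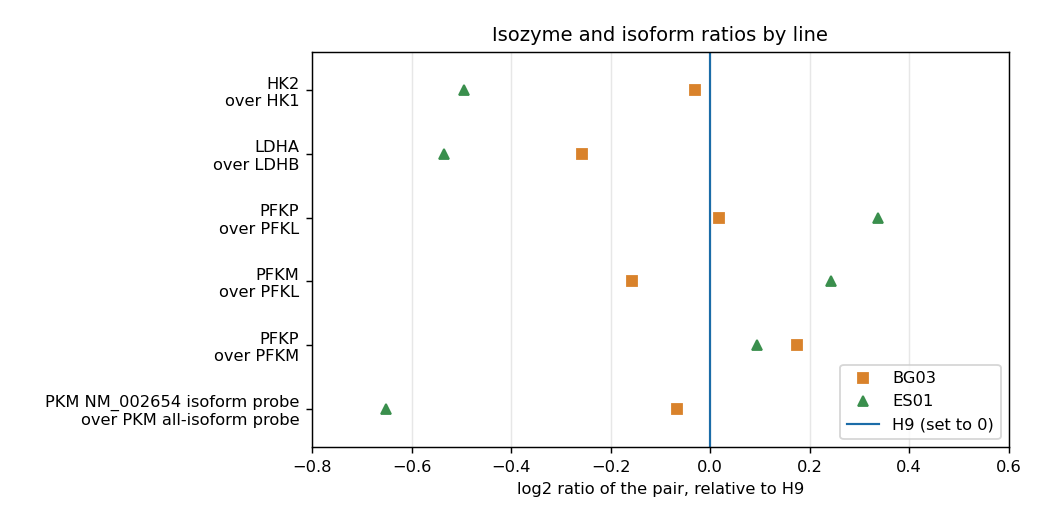
Log2 ratio of isozyme pairs, and of the PKM isoform probe for NM_002654 over the PKM all-isoform probe, in BG03 (squares) and ES01 (triangles), each relative to H9 (vertical line at 0); 1 array per line, so no error bar is drawn. ES01 lies left of H9 for HK2 over HK1 (-0.49), LDHA over LDHB (-0.53) and the PKM ratio (-0.65), and right of it for the ratios over PFKL.

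The other steps of the pathway were as widely expressed. Of 9 measured genes, 9 were above background in all lines and 0 differed 2-fold between any lines. The shares were 59.8% of all measured genes and 8.23% of the genes tested. The count of 0 is thus near its background. GAPDH (9951, 9737 and 10722 units) and ENO1 (13731, 12849 and 14649 units), the forms of their steps found in most cells, spanned 1.10-fold and 1.14-fold. PGK1 (552, 517 and 460.1 units), PGAM1 (1957, 2264 and 2009 units), BPGM (125.0, 111 and 106 units) and ADPGK (153, 211 and 202 units) spanned 1.16-fold to 1.38-fold. TPI1, triose phosphate isomerase, measured 2247, 1942 and 1540 units, with ES01 lowest as for PFKL. ENO2, the neuronal enolase, was highest in H9 at 412 against 213 and 208 units (1.98-fold), and ENO3, the muscle enolase, measured 205, 238 and 155 units. The list's median log2 difference was -0.09 for BG03 minus H9 and -0.23 for ES01 minus H9.

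The isozymes listed as tissue-restricted were mostly dim. That list leaves out ENO2 and ENO3, which were counted with the other steps and were above background in all lines. Over all measured genes, 59.8% were above background in all lines. Of the 11 measured genes of the list, 1 was above background in all lines, 3 in some and 7 in none. The 1 was ALDOC, the brain aldolase, at 836, 449.9 and 474 units, again highest in H9. LDHC, the testis lactate dehydrogenase, was above background in H9 alone at 37.5 units, at least 2.97-fold over the BG03 threshold. PKLR, the liver and red cell pyruvate kinase, passed only just in ES01 (16.1 units) and PGAM2, the muscle phosphoglycerate mutase, in BG03 (17.4 units). HK3, HKDC1, LDHAL6A, LDHAL6B, PGK2, GAPDHS and ENO4 were not above background in any line. Their probes were not checked, so their absence is not shown.

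Genes that feed glycolysis or take its products gave a mixed picture. Among 16 measured genes, 12 were above background in all lines (11 as deposited or scaled to the same median) and 3 differed 2-fold. Of all measured genes, 59.8% were above background in all lines, and 8.23% of those tested differed 2-fold between any 2 lines. The same shares apply to the regulators and gluconeogenesis genes below. The counts are not read as traits of these lists. The glucose transporter SLC2A1 was highest in ES01 (77.6, 90.3 and 225 units), opposite to HK2, while SLC2A3, the other main transporter here, was level (2290, 2570 and 2262 units). The pyruvate dehydrogenase subunits PDHA1 (2851, 2978 and 2667 units) and PDHB (2561, 2688 and 2637 units) varied by at most 1.12-fold. Among the kinases that inhibit that enzyme, PDK1 was lowest in BG03 (164, 91.7 and 190.1 units) and PDK3 highest there (312, 542 and 231 units). PDK2 was near the threshold (11.3, 14.2 and 17.5 units) and PDK4 was not above background in any line. PDK2 and PDK4 were singled out after their values were seen. Of 12 measured regulators, 8 were above background in all lines and 0 differed 2-fold. HIF1A, the hypoxia factor subunit that acts on LDHA and HK2, measured 564, 421 and 782 units, and MYC, another activator of glycolytic genes, 1158, 1035 and 1224 units. PFKFB1 and PFKFB2 were not above background; PFKFB4, singled out after its values were seen, was highest in H9 (406, 255 and 223 units). Of 6 gluconeogenesis genes, 3 were above background in all lines and 0 differed 2-fold. FBP1 measured 127, 87.3 and 102 units and PCK2, the mitochondrial form, 915, 741 and 774 units. FBP2 and PCK1 were not above background.

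Hypoxia-responsive genes outside glycolysis were listed because LDHA, HK2 and ALDOA belong to the same response. Of 14 measured, 12 were above background in all lines, where 59.8% of all measured genes were, and 13 in at least 1. BG03 was below H9 for 10 of the 13 (median log2 difference -0.58) and ES01 for 9 (median -0.45), where the medians of the 10 enzymes were -0.09 and -0.22. Of all genes tested, 53.7% were higher in BG03 than in H9 and 51.8% higher in ES01 than in H9. At least 2-fold differences were found for 3 between BG03 and H9, 4 between ES01 and H9 and 0 between ES01 and BG03. The shares of all genes tested were 3.23%, 5.1% and 3.74% in the same order. DDIT4, an inhibitor of mTOR signalling, measured 369.5, 100.2 and 57.7 units. BNIP3, a mitophagy receptor, measured 2417, 1348 and 1048 units, ANKRD37 67.8, 19.8 and 29.3 units, P4HA1, a collagen prolyl hydroxylase, 685, 330.0 and 502 units, and EGLN1, an oxygen sensor, 30.4, 18.5 and 2.47 units, the last not above background. H9 was thus highest for each of these 5, which are named because they passed 2-fold. BNIP3L, a relative of BNIP3, was also highest in H9 but by less than 2-fold (247, 165 and 174 units). ADM (265, 482 and 451 units), EGLN3 (134, 192 and 194 units) and NDRG1 (30.2, 34.7 and 47.9 units) went the opposite way and were lowest in H9. EGLN3 and NDRG1 were singled out after their values were seen. VEGFA was not above background in any line. Oxygen tension is not given in the labels, and the part of this response in the levels of the enzymes was not tested.

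**Figure D4:**
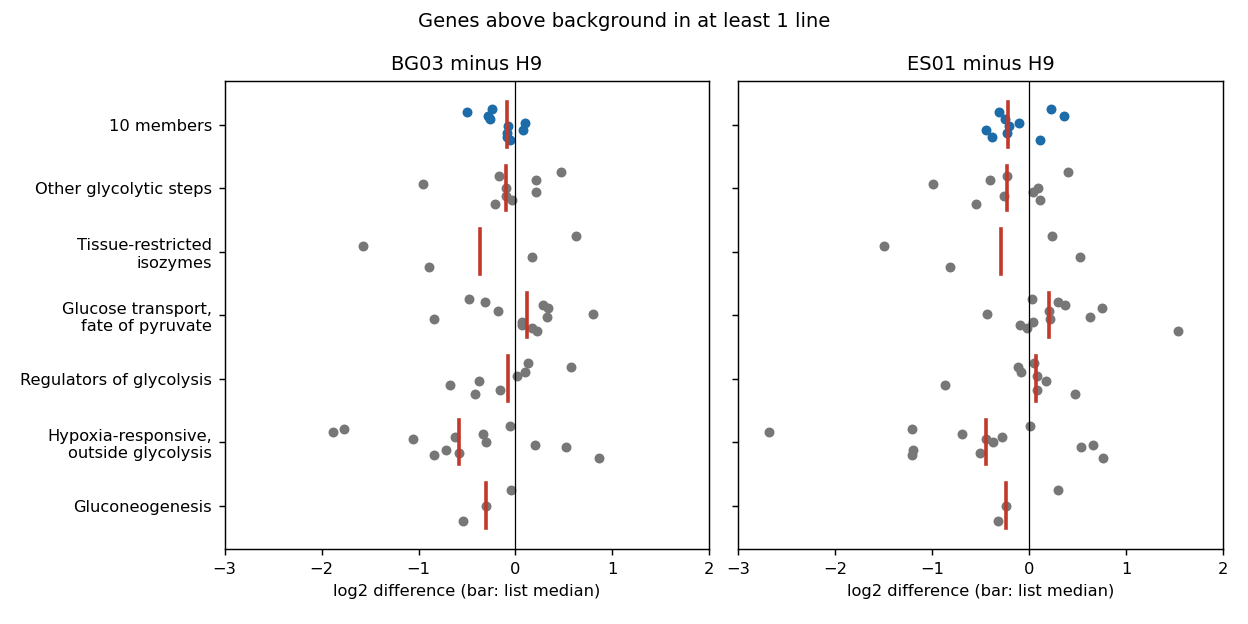
Log2 difference from H9 in BG03 (left) and ES01 (right) for the 10 enzyme genes (blue) and the genes of 6 lists above background in at least 1 line (grey), with the list median as a red bar; values under background stand at the array's threshold. The medians of the hypoxia-responsive genes lie at -0.58 and -0.45, further from 0 than those of the 10 enzymes at -0.09 and -0.22.

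The label of the cells was checked on marker genes. Of 11 measured markers of undifferentiated ES cells, 11 were above background in all lines, where 59.8% of all measured genes were. Their levels did not move together between lines. LIN28A was highest in ES01 (5466, 5837 and 6489 units). So were DNMT3B (6715, 7558 and 9013 units), L1TD1 (7436, 8145 and 11006 units), SALL4 and DPPA4. GDF3 and LEFTY1 were lowest in H9, and NANOG in BG03. POU5F1 (270, 287 and 195 units), ZFP42 (364, 780 and 247 units, a spread of 3.15-fold) and TERF1 (4951, 4684 and 4436 units) were lowest in ES01. All 6 measured markers of mesoderm and muscle, 4 of trophoblast and 3 of blood were below background in every line, and among endoderm genes ALB was, while AFP (148, 322 and 383 units), TTR (81.5, 12.8 and 21.0 units) and SOX17 were not. Of 4 measured neural markers, 1 was above it in all lines (DCX, at 34.4, 76.3 and 55.4 units). Of 7 fibroblast markers, 3 were above background in all lines; COL3A1 and POSTN were not above it in any. Their summed intensity was 1128, 1157 and 1490 units. THY1 was the largest part of it in each line (752, 851 and 824 units). THY1 is known on the surface of human ES cells too, so the sum does not measure fibroblast content. The higher sum in ES01 came mainly through COL1A2 (310.3, 229 and 582 units). Other genes of this list did not follow it: LUM was above background in BG03 alone (48.9 units), and DCN was highest in H9 (30.5, -0.6 and 26.4 units). The part of fibroblast or feeder RNA in the enzyme values was not tested.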

How the data were processed

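Total RNA of 3 lines was labelled with Cy3 and hybridised to Illumina arrays, per the labels. The deposited values are linear intensity per probe with background subtracted (26.3% to 33.8% are below 0); how the authors scaled arrays is not given in the sources used here. The deposited bead files, 1 green intensity per bead and 2089034 to 2102778 beads per array, served for bead error only, after beads over 3 median absolute deviations were left out.

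Of 47293 probes, 18468 had 1 gene symbol in the platform annotation, 0 several and 28825 none; 18451 were updated by gene ID to RefSeq (GRCh38.p14, names and promoter sequences only; all 10 genes matched). Quantile normalization (limma 3.58.1, R 4.3.3) covered all but 4 control probes. The probe with the highest mean stood for a gene, and values under the background threshold were set to it before log2. Named genes were every probe of the 10 members, the genes of the 2 lists of glycolytic isozymes, and from other lists the first 4 measured and any gene differing 2-fold. Genes of the lists named outside this rule are marked as singled out. The members and lists were chosen with earlier results of these data known. Counting was tested on simulated data. Alternatives changed the scaling, background, floor, probe rule, fold threshold and number of lines. Summaries and figures were made with numpy 2.4.6, pandas 2.3.3 and matplotlib 3.10.9 under Python 3.11.15.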

Additional observations from a re-analysis of the deposited data

How the results depend on the processing

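The count of 10 of 10 genes above background held under every alternative for scaling, background, floor, probe rule and left-out line. Scaling the arrays to the same median moved ES01 down for all genes (all-gene median -0.27 against H9 and -0.34 against BG03), and the median of the 10 genes moved to -0.48 and -0.39. Under that scaling 1 gene of the other glycolytic steps, 2 tissue-restricted isozymes and 2 regulators differed 2-fold. With a 1.5-fold threshold, 1 gene (PKM, ES01 against BG03) was counted. The isozyme ratios kept their direction in all alternatives run. The 10 enzymes have 1 array per line, which limits every difference. Probes not above background give only a bound. No paired analysis was possible because each line has 1 array and the lines form 1 group.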
